A study of Caenorhabditis elegans with 2 samples.

Results

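The DREAM complex joins a retinoblastoma-family pocket protein, an E2F-DP heterodimer and the MuvB core, and it holds cell cycle genes silent in cells that have left the cycle. MuvB reaches DNA through LIN-54, which binds an element called the cell cycle genes homology region (CHR), while the E2F-DP pair binds a GC-rich site close to many starts of transcription. Cyclin D with its kinase CDK-4, and then cyclin E, drive cells from G1 into S phase, in part by inactivating the pocket protein. In Caenorhabditis elegans several of these genes are synMuv class B genes, known for restraining vulval development in the larva.

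The 10 genes described here are the pocket protein gene lin-35, the E2F gene efl-1, the DP gene dpl-1, the MuvB genes lin-54, lin-9, lin-37 and lin-53, the cyclin genes cye-1 and cyd-1, and the kinase gene cdk-4, out of 19973 protein-coding genes on the nuclear chromosomes. They were chosen by the authors' signal at regions in their windows together with their known roles, so the presence and signal of regions at them are a description and were not tested. A region was assigned to a gene when its summit lay between 1000 bp upstream of a transcript start and the gene end, called the gene window below.

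The regions came from ChIP-seq libraries labelled for the forkhead factor FKH-10, made from L4 larvae of strain OP337, whole animals with males and females pooled, and both samples carried the mutation unc119(ed3) and the transgene wgIs377, in which fkh-10 is joined to the tags TY1, EGFP and FLAG beside an unc119 copy. There was 1 group with 2 biological replicates and no untagged or untreated group among the samples, so no comparison between conditions was possible. The labels do not say which cells express the transgene or whether the replicates came from separate cultures. The authors deposited 2253 regions past their irreproducible discovery rate threshold, called IDR regions, and longer relaxed lists, with 19381 regions from pooled reads, 30000 in replicate 1 and 28886 in replicate 2. The relaxed lists include background by design, the depth in reads is unknown, and fkh-10 itself had 0 regions in its window in each of the 4 lists. No region thus marks the gene that the labels name, and the source of that was not tested.

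Of the 10 genes, 6 had an IDR region in the gene window: lin-35, efl-1, lin-54, lin-9, lin-53 and cye-1. Over all protein-coding genes the share with one was 8.55% (95% Wilson interval 8.17 to 8.94, counting error only). Each of the 6 genes had 1 IDR region, and all 6 summits lay upstream of the gene, between 144 and 558 bp from the nearest transcript start of that gene. With the window narrowed to the promoter, up to 200 bp downstream of a start, the count was again 6 of 10 genes, against 6.97% of all genes. The other 4 genes, dpl-1, lin-37, cyd-1 and cdk-4, had relaxed regions only. In the pooled relaxed list 10 of 10 genes had a region, against 44.9% of all genes. In replicate 1 the count was 9 of 10 against 61.6%, in replicate 2 it was 9 of 10 against 55.1%, and 9 of 10 had a region in both replicate lists against 41.9%. Genes in the list had a median length of 3328 bp, against 2027 bp for all protein-coding genes, and the window grows with the gene. The farthest upstream IDR summit inside a window was that of cye-1 at 558 bp, and the nearest outside was at lin-9, at 1294 bp. Among relaxed regions the nearest outside was at efl-1 in replicate 1, at 1045 bp, with a signal of 9.65.

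The sequences of 3 of the 6 IDR regions are shown first, so that their letters can be set against the elements that these very proteins recognise. They are the stretch within 100 bp of the summit, credited to the RefSeq genome of WBcel235, the sequence of build ce11, and written 5′ to 3′ on the strand of the named gene. At lin-54 the stretch stops where the first exon of rpl-12 begins. Capitals mark matches, on either strand, to the LIN-54 element TTTGAA (reverse complement TTCAAA) or to an E2F-type site, GCGGGAA or GCGCGAA (reverse complements TTCCCGC and TTCGCGC).
lin-54, chrIV:13240652-13240822, plus strand: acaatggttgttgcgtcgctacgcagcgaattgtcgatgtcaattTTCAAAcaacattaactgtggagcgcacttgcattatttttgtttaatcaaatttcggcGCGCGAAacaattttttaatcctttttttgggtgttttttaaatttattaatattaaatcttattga
lin-9, chrIII:8904175-8904375, minus strand: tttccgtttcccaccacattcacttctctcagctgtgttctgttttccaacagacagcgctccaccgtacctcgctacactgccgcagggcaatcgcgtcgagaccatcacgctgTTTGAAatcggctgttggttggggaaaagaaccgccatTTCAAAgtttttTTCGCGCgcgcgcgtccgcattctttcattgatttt
efl-1, chrV:16965772-16965972, minus strand: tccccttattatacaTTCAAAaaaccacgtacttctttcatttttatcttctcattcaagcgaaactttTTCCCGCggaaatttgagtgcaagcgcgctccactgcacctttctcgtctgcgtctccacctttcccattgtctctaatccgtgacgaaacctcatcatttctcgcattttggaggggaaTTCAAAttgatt
The regions shown are not a comparison of IDR with relaxed regions. Such letters were not at every IDR region of the list, and the relaxed regions of dpl-1 and lin-37 held TTTGAA. The relaxed region of cdk-4 held no match to any of the forms above within 100 bp of its summit.
cdk-4, chrX:13519191-13519391, minus strand: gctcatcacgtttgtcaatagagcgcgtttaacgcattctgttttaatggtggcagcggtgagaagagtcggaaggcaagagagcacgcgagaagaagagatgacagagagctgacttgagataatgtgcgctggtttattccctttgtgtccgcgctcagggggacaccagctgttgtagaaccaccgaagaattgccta

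E2F-type letters lay at 5 of the 6 IDR regions of these genes. GCGCGAA was within 100 bp of the summit at lin-54, lin-9 and cye-1, and GCGGGAA at efl-1 and lin-53, while lin-35 had neither. Counted as 1 class, a grouping made after the matches were seen, the E2F-type forms were at 149 of the 2253 IDR regions, or 6.61% (95% Wilson interval 5.66 to 7.72), and at 8.38% of the 1098 IDR regions in promoters. Of stretches of the same length centred 200 bp upstream of the first start of every protein-coding gene, 3.75% held one. The single forms were at 3.20% (GCGGGAA) and 3.55% (GCGCGAA) of IDR regions. The match nearest its summit was that at efl-1, 28 bp away, followed by lin-54 at 37 bp, cye-1 at 51 bp, lin-9 at 68 bp and lin-53 at 91 bp. Within 50 bp of the summit 2 of the 6 IDR regions, those of efl-1 and lin-54, kept a match, against 3.24% of all IDR regions.

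The LIN-54 element TTTGAA was at 5 of the 6 IDR regions, at efl-1, lin-54, lin-9, lin-53 and cye-1, and also at the relaxed regions of dpl-1 and lin-37. These letters are common in the worm genome: 32.7% of IDR regions and 50.3% of the promoter stretches held them. Wholly within 50 bp of the summit they were at 3 of the 10 regions, those of dpl-1, lin-54 and lin-9, so that 2 of the 6 IDR regions kept them, against 17% of all IDR regions. The genes efl-1, lin-9 and lin-53 each had a pair of matches. Neither TTTGAA nor an E2F-type form was at the IDR region of lin-35 or at the relaxed regions of cyd-1 and cdk-4. The variant TTCGAA was at 0 of the 10 regions, of which 6 are IDR regions, against 10.7% of all IDR regions. The forkhead letters GTAAACA were also at 0 of the 10, against 3.6% of IDR regions, and the repeat GAGAGAG was at 0 of the 10, against 20.1%. No motif searched contains another, both strands were read, and a match of letters is not evidence that the factor was bound.

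lin-54 had the strongest region of the group. LIN-54 is the DNA-binding subunit of MuvB. Its IDR region (chromosome IV, 13240527 to 13240916, build ce11) had a signal of 200.6 and rank 9 of 2253. At the same site, taken as a summit within 100 bp, the signal was 86.9 in replicate 1, rank 13 of 30000, and 109 in replicate 2, rank 12 of 28886. Both replicates thus placed the site in the first 0.0433% of their list. The site is a shared one: rpl-12, encoding a protein of the large ribosomal subunit, starts on the other strand 393 bp from lin-54. The summit was 71 bp upstream of the rpl-12 start and 322 bp upstream of the lin-54 start, so the region goes to rpl-12 where only the nearest start counts. The rest of lin-54 had weak regions only, a pooled one with a signal of 13.0 in an intron, one of 7.75 in replicate 1 and one of 6.23 in replicate 2.

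lin-9, encoding a further core subunit of MuvB, came next and had its promoter region to itself. The IDR region (chromosome III, 8904080 to 8904469) had a signal of 129 and rank 68, with the summit 144 bp upstream of the start. The signal was 62.2 in replicate 1, rank 46, and 70.7 in replicate 2, rank 81. The replicate summits were 20 bp apart. Of the 6 genes with an IDR region, lin-9 alone had no other gene whose promoter window held the summit, and no list had a further region in its window. A second IDR region stood just beyond the window, 1294 bp upstream of the lin-9 start, with a signal of 61.6 and rank 1043. It lay in the promoter of unc-32, which encodes a vacuolar ATPase subunit.

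lin-53 encodes a histone-binding WD40 protein that serves in MuvB and also in chromatin remodelling and deacetylase complexes. Its IDR region (chromosome I, 9619796 to 9620185) had a signal of 96.9 and rank 219. The signal was 36.4 in replicate 1, rank 487, and 61.5 in replicate 2, rank 165. The raw ratio of replicate 2 to replicate 1, 1.69, was the farthest from equality among the genes matched in both. On the log2 scale it was 0.76, against a median of 0.40 over the IDR regions matched in both. Measured from that median, efl-1, at -0.20, lay farther off than lin-53. The summit lay 231 bp upstream of lin-53 and 236 bp upstream of nra-2 on the other strand, nearly midway between them.

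lin-37, the remaining MuvB gene of the list, had no region of either replicate in its window. The pooled list had 1, with its summit in exon 5, a signal of 15.1 and rank 13323 of 19381. The nearest pooled summit upstream of its window was 1160 bp from the start, with a signal of 18.8, and the nearest IDR summit was 22899 bp away. Among the MuvB genes of the list the pooled signals ran 191 at lin-54, 133 at lin-9, 99.1 at lin-53 and 15.1 at lin-37. The further DREAM gene lin-52, outside the list, had no region in the pooled list.

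lin-35 and efl-1, the pocket protein and E2F genes, had IDR regions of similar strength. At lin-35, the only pocket protein gene of the worm, the region (chromosome I, 5807314 to 5807703) had a signal of 84.7 and rank 410. The signal was 35.8 in replicate 1, rank 511, and 42.8 in replicate 2, rank 635. The summit was 200 bp upstream of lin-35 and 218 bp upstream of vps-51, a gene of vesicle tethering on the other strand, and the starts are 418 bp apart. At efl-1, related to the repressive mammalian E2F factors, the region (chromosome V, 16965677 to 16966066) had a signal of 80.3 and rank 488. Here replicate 1 was the higher, with 46.5 and rank 200, against 40.3 and rank 754 in replicate 2. The summit was 197 bp upstream of efl-1, while the start of fbxa-90 on the other strand was 942 bp from it.

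The bodies of these long genes held weak regions. lin-35 had a pooled region in exon 8 with a signal of 15.2, which both replicates listed, at 10.3 and 7.56. Inside efl-1 the pooled list had an intronic region of 21.5 and one of 14.5, and replicate 1 had the same sites at 13.95 and 10.3, while replicate 2 had no region inside the gene.

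Unlike efl-1, dpl-1 had no IDR region. DPL-1 is the DP subunit without which E2F factors bind DNA poorly. No IDR summit lay nearer than 104266 bp to its start. Its main region was a relaxed one (chromosome II, 9169446 to 9169835) with a pooled signal of 25.14 and rank 4528 of 19381. The replicates gave nearly the same value, 12.8 in replicate 1, rank 6010, and 13.1 in replicate 2, rank 5947. The summit was 269 bp upstream of the start and inside an exon of T23G7.2, a gene on the other strand that spans dpl-1 from end to end. Replicate 1 alone had a pair of weaker regions at dpl-1, of 6.90 at 28 bp upstream of the start and 7.37 in an intron.

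**Figure D1:**
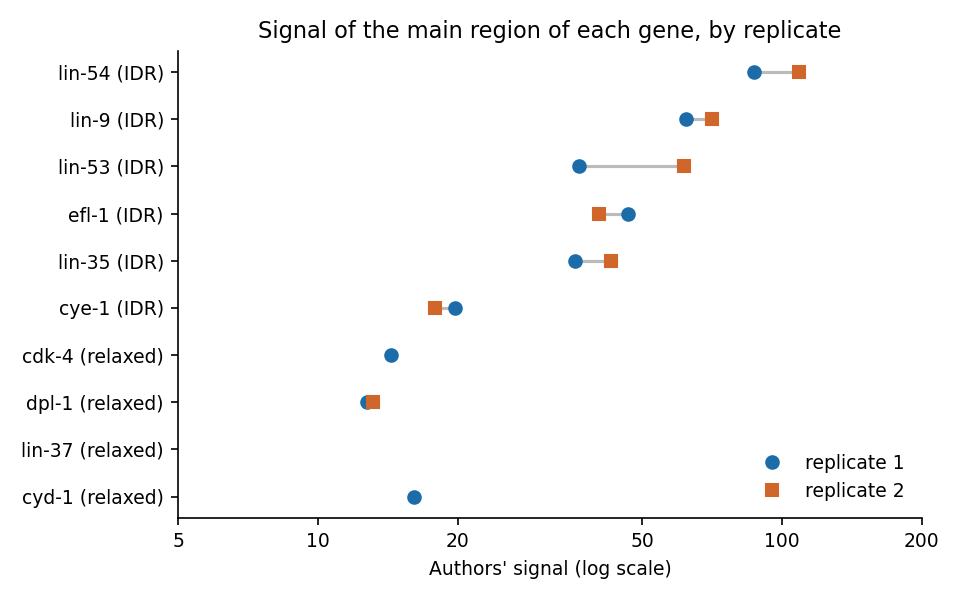
Authors' signal (log scale, no unit) of the main region of each of the 10 genes in replicate 1 (circles) and replicate 2 (squares), ordered by pooled signal; the main region is the IDR region or, where there was none, the strongest pooled relaxed region, matched to each replicate by summits within 100 bp. lin-54 and lin-9 lead in both replicates at 86.9 and 109 and at 62.2 and 70.7; lin-37 had no match, and cyd-1 and cdk-4 had one in replicate 1 alone.

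The cyclin genes cye-1 and cyd-1 and the kinase gene cdk-4 had lower signals than lin-35 or efl-1. At cye-1, encoding cyclin E, the IDR region (chromosome I, 6780046 to 6780435) had a signal of 55.3 and rank 1348, the lowest of the 6. The signal was 19.8 in replicate 1, rank 2049, and 17.9 in replicate 2, rank 3501, so in replicate 2 it was not among the 2253 strongest regions. The summit was 558 bp upstream of cye-1, outside a window of 500 bp, and 90 bp upstream of pqn-21 on the other strand.

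A second site lay inside cye-1 and differed between the replicates. In replicate 2 it was the strongest region of the gene, in an intron 1058 bp downstream of the start, with a signal of 31.7 and rank 1353. The pooled list had it at 37.3, rank 2535, 1066 bp from the start. The closest region of replicate 1, 871 bp from the start, had a signal of 10.1 and rank 11626. The IDR list did not contain the intronic site. In replicate 1 the promoter region was thus the stronger of the pair, at 19.8 against 10.1, and in replicate 2 the intronic one, at 31.7 against 17.9.

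cdk-4, the kinase partner of cyclin D, had no IDR region in its window. Its promoter region (chromosome X, 13519096 to 13519485) had a pooled signal of 36.6 and rank 2598 of 19381. Replicate 1 had 14.3 at the same summit, rank 4328. The nearest region of replicate 2 overlapped it with the summit 126 bp away and had 24.7, rank 2139, which is within the 2253 strongest of that replicate. The summit was 380 bp upstream of cdk-4 and 372 bp upstream of F18H3.1 on the other strand. Within the gene, replicate 1 had an intronic region of 13.7 at 270 bp from the start, close to its promoter value, while the region of replicate 2 inside the gene, at 2258 bp, had 10.3. An IDR region of signal 84.8 lay 1295 bp past the end of cdk-4, in no promoter window.

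cyd-1, encoding cyclin D, had no region upstream of its first start in any of the 4 lists, and at 12527 bp it is the longest of the 10 genes. Its pooled region, in an intron 1407 bp past the second annotated start, had a signal of 14.7 and rank 14212, and overlapped the noncoding gene Y38F1A.12. Replicate 1 had 16.1 there, rank 3196, and 3 weaker regions. Replicate 2 had no match there and 1 weak region elsewhere in the gene, at 6.57, rank 22870.

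**Figure D2:**
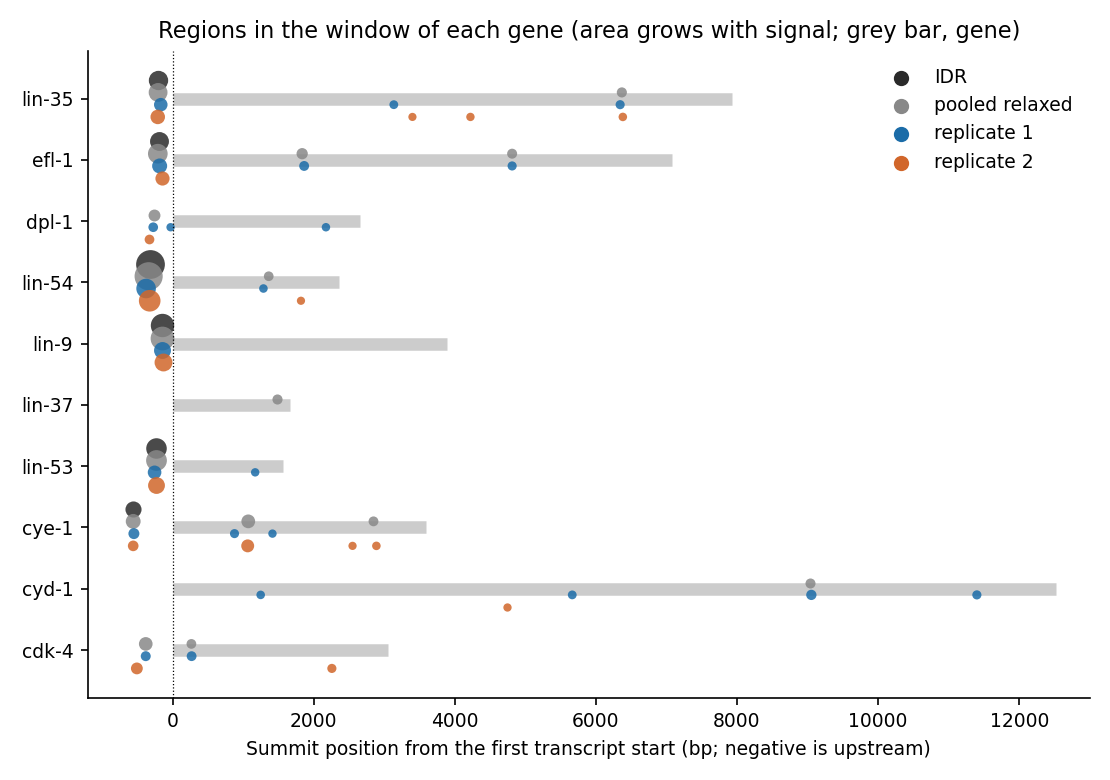
Summits of all regions in the windows of the 10 genes, by distance from the first transcript start in bp (negative is upstream), with marker area growing with the authors' signal, black for IDR, grey for pooled relaxed, blue for replicate 1 and orange for replicate 2; grey bars are the genes. The large markers sit upstream of the start in lin-35, efl-1, lin-54, lin-9, lin-53 and cye-1, and the largest markers in gene bodies are those of the site inside cye-1, with a signal of 37.3 in the pooled list and 31.7 in replicate 2.

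Across the list, the order of the genes held in part between replicates. lin-54 and then lin-9 led in both. lin-53, lin-35 and efl-1 formed a middle set whose order changed, with 36.4, 35.8 and 46.5 in replicate 1 and 61.5, 42.8 and 40.3 in replicate 2, and they do not differ beyond the spread between replicates. cye-1, dpl-1 and the promoter site of cdk-4 were below these in both replicates. On the log2 scale the ratio of replicate 2 to replicate 1 at the 7 sites matched in both ran from -0.20 at efl-1 to 0.76 at lin-53. Over the 2013 IDR regions matched in both, its median was 0.40 with an SD of 0.72, and the middle 90% ran from -0.71 to 1.64, a range that covered all 7 sites.

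**Figure D3:**
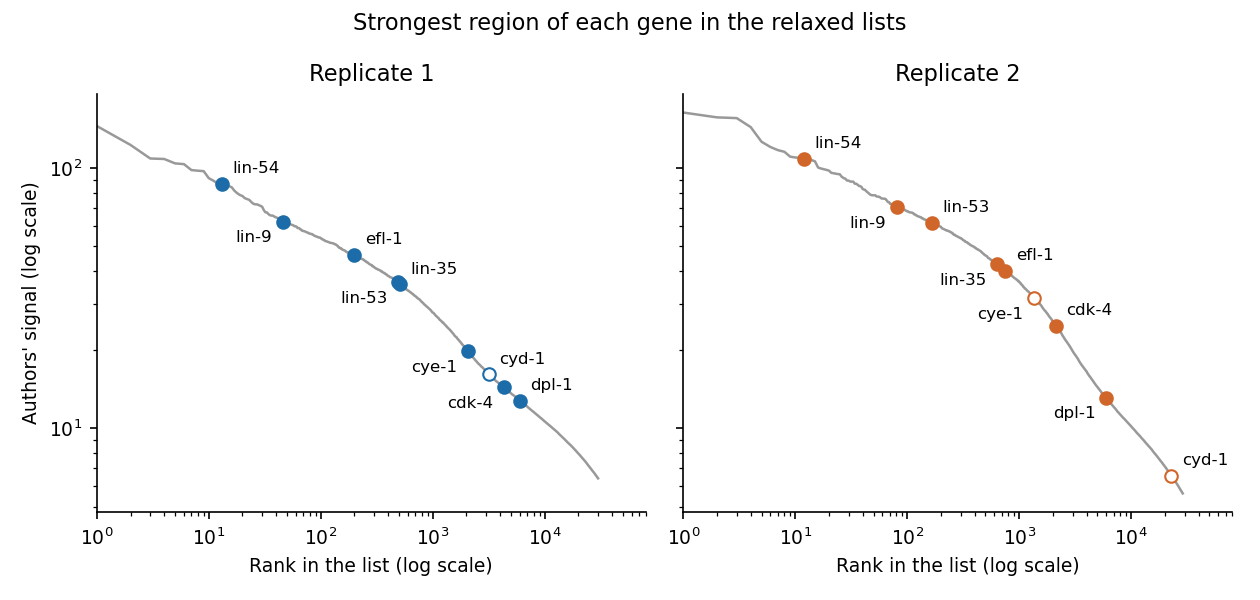
Authors' signal against rank (both axes logarithmic) for all regions of replicate 1 (left) and replicate 2 (right), with the strongest region of each gene as a filled circle where it lay upstream of the gene and an open one where it lay in the gene body. lin-54 ranks 13 in replicate 1 and 12 in replicate 2, while cyd-1 is at rank 3196 in replicate 1 and 22870 in replicate 2; lin-37 is absent from both.

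Position set the IDR sites of this list beside others of their kind. The 6 summits were 144, 197, 200, 231, 322 and 558 bp upstream of the nearest start of the gene. Over the 1098 IDR regions in promoters, measured to the nearest coding start of any gene, the median was 218 bp upstream, with quartiles at 392 and 104 bp upstream. By that measure the lin-54 summit was at 71 bp, from rpl-12, and the cye-1 summit at 90 bp, from pqn-21. All except lin-9, 5 of the 6, were at the promoter of a second protein-coding gene on the other strand. At efl-1 the start of that gene, fbxa-90, was 942 bp from the summit, near the edge of the 1000 bp window. At the others it was 71 to 236 bp away. Counted by region and on either strand, 29.1% of IDR promoter regions (320 of 1098) were at more than 1 gene. A region shared by a pair of genes counts once there. The share counted by gene, as for the list, would be higher and was not computed. Which gene of such a pair a region belongs to cannot be told apart from the regions alone. GC content within 100 bp of the summit ran from 36.3% at lin-54 to 55.2% at cye-1, and over the 2253 IDR regions the median was 42.8%, with an SD of 7.08 percentage points.

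Genes around the complex were read from 6 lists of 94 genes, of which 13 (13.8%) had an IDR region in the window, with signals from 42.0 to 122. At 10 of these 13 the site had a match in both replicates, and at ddb-1, zyg-1 and egl-27 in replicate 1 alone. Of 4 further DREAM and E2F genes, lin-52, efl-2, efl-3 and rba-1, 0 had one, which with so few genes allows a share of up to 49.0% (Wilson interval). In the pooled relaxed list 0 of these 4 had a region, against 44.9% of all genes. A relaxed region in both replicate lists was found at 3 of the 4, against 41.9%. Of 16 other G1/S regulators 2 had an IDR region, lin-23, an F-box gene of a ubiquitin ligase (signal 58.3), and ddb-1, an adaptor of another (42.5, inside the gene). Of 20 genes of G2 and mitosis 2 did, the kinase genes wee-1.3 (50.7) and zyg-1 (44.7). Of 14 other synMuv genes 1 did, lin-38 (61.0). Without replicate 2, using the strongest regions of replicate 1, the counts were 1 of 16, 1 of 20 and 0 of 14, and without replicate 1 the G1/S count was 1 of 16. The shares, 0 to 12.5%, have intervals that include the 8.55% of all genes.

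Of 33 DNA replication genes, among them textbook E2F targets, 5 had an IDR region (15.2%, Wilson interval 6.65 to 30.9), which also includes the share of all genes. The strongest, at rfc-4, a clamp loader subunit, had a signal of 122 and rank 83, with 40.6 in replicate 1 and 78.5 in replicate 2, and is shared with the promoter of eef-1A.1. It was followed by pri-2, a primase subunit (76.5), pcn-1, the sliding clamp PCNA (68.4), and cdc-6, a licensing factor (57.3). None of the mcm-2 to mcm-7 helicase genes was among them. Of 7 genes of the NuRD and MEC chromatin complexes, in which LIN-53 also serves, 3 had one (42.9%, interval 15.8 to 74.95). They were egl-27 (55.7, inside the gene), dcp-66 (52.9) and mep-1 (42.4). With the promoter only, or without replicate 2, the count was 2 of 7. Enrichment of a list was not tested, and the intervals make no allowance for reading several lists or for gene length. Among the 13 genes, 3 had an E2F-type form within 100 bp of the summit, wee-1.3, pri-2 and lin-38, and 10 had TTTGAA. Of all IDR regions, 6.61% held an E2F-type form and 32.7% held TTTGAA. At 11 of the 13 genes the summit was within 1000 bp upstream of a start. Of IDR regions in promoters 8.38% held an E2F-type form and 36.2% TTTGAA, and of the promoter stretches 3.75% and 50.3%.

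**Figure D4:**
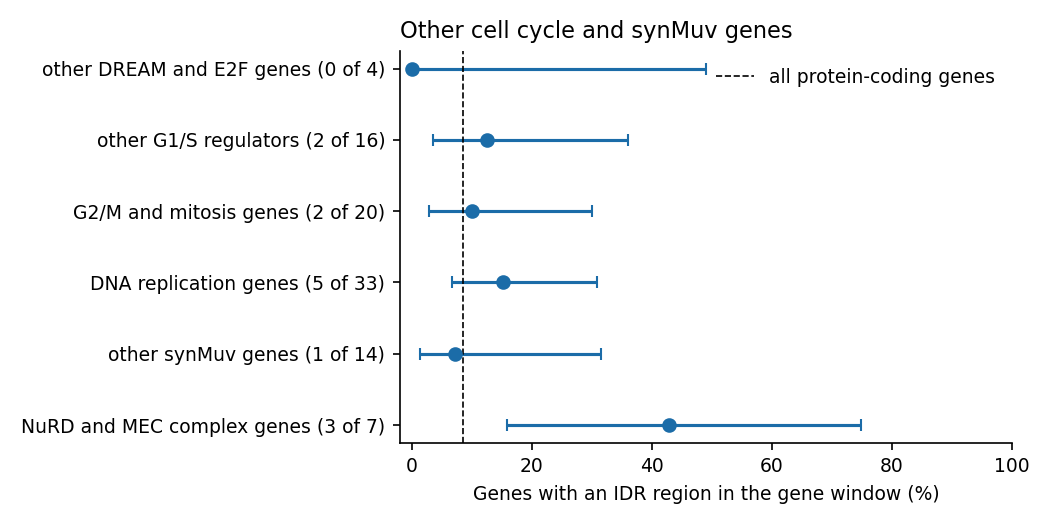
Percent of the genes of 6 lists with an IDR region in the gene window (points) with 95% Wilson intervals (bars); the dashed line is the 8.55% of all protein-coding genes. The intervals of 5 lists cross the line, and that of the NuRD and MEC genes, 3 of 7, begins at 15.8%. The lists were chosen with earlier results of these data known, so enrichment was not tested. No allowance was made for reading 6 lists or for gene length. With the promoter only, or without replicate 2, this last count was 2 of 7.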

How the data were processed

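Per the file descriptions, the authors deposited narrowPeak lists on build ce11 and the same on ce10; the 4 ce11 lists were used and the 4 ce10 lists were not used here. The deposited signal of each region is the authors' enrichment against a control library that both replicates share; for scale, aligner, caller and cut-offs, values were not given in the sources used here. IDR regions were derived from the pooled and both replicate lists. Most summits (98.4% of IDR regions) are the midpoint of a region of fixed width, which limits their precision. Files of the replicates shared 0 regions of equal position and signal.

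No region ran past the end of its WBcel235 chromosome. Genes came from Ensembl release 115; genes of the mitochondrial genome were left out. Summits (start plus column 10) were counted from 1. Signals were ranked within a list and not compared in size across lists of different make. Sites matched within 100 bp. No test was made, since the members and lists were chosen with earlier results of these data known. The genes named are the 10 members, genes sharing their promoter regions, up to 4 of each list with the highest signal, and fkh-10. Named outside this rule, after values were seen, are list genes with no IDR region (lin-52, efl-2, efl-3, rba-1, mcm-2 to mcm-7), unc-32, eef-1A.1 and T23G7.2. Steps were tested on simulated regions. Python 3.11.15, pandas 2.3.3, scipy 1.17.1 and matplotlib 3.10.9 were used. Alternatives changed the window, the threshold, the assignment, the replicate, the match distance and the motif stretch.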

Additional observations from a re-analysis of the deposited data

How the results depend on the processing

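The count of 6 genes with an IDR region was 5 with 500 bp upstream (without cye-1), 5 with only the stronger IDR regions, those above the median signal (without cye-1), 4 where a region went only to its nearest start (without lin-54 and cye-1), 6 with 2000 bp or the promoter only, and 10 with the pooled relaxed list. With 1 replicate left out and the 2253 strongest regions of the other used, it ranged from 6 to 7; the seventh, without replicate 1, was cdk-4, and cye-1 then counted through its intronic site. The share of all protein-coding genes was 7.32% with 500 bp, 10.6% with 2000 bp, 6.97% with the promoter only, 4.52% with the stronger regions, 6.56% with the nearest start, 44.9% with the pooled list, and 8.10 to 8.45% with 1 replicate left out. Genes with a relaxed region in both replicates numbered 8 to 10. Sites matched in both replicates numbered 5 within 50 bp and 8 within 200 bp or by overlap, where cdk-4 joined, against 7. For relaxed regions in both replicates and for matched sites, shares over all genes or regions were not computed at the changed settings. Genes with any of the 4 LIN-54 or E2F-type letters numbered 7, and 4 within 50 bp of the summit. Of the 6 IDR regions 5 held any of the 4 within 100 bp, against 42.3% of all IDR regions and 58.0% of the promoter stretches. TTTGAA was at 7 and at 3. E2F-type forms were at 5 and at 2, and over the whole deposited region at 5, against 10.1% of IDR regions. The 13 genes of the 6 lists ranged from 9 to 12 with 1 replicate left out. Without replicate 2, G1/S regulators went to 1, G2 and mitosis genes to 1, synMuv genes to 0 and NuRD and MEC genes to 2. Without replicate 1, G1/S regulators went to 1. With the promoter only, G1/S regulators went to 1 and NuRD and MEC genes to 2. The motif shares over all IDR regions in the narrower and wider stretch were added after the data were seen. No paired analysis was possible because there was 1 group. With depth in reads unknown, the precision of each signal could not be stated.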
